A study of Arabidopsis thaliana with 6 samples.

Results

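Transcript of 10 genes that encode microtubule-associated proteins was measured in Arabidopsis thaliana root tips of scl28-3 and wild-type plants. The genes were chosen by identifier and were MAP65-1, MAP65-2, MAP65-4, EB1A, EB1B, EB1C, CLASP, MOR1, IQD6 and IQD8, and all 10 were among the 21125 genes in the deposited tables. The scl28-3 plants carry a mutation of SCL28 (AT1G63100), a gene for a transcription factor of the GRAS family, and the wild-type plants do not. Both groups had 3 libraries, each from about 300 tips of about 2 mm that were cut from 6-day-old plants kept at 21 °C in continuous light. The labels give no accession background, no description of the lesion in scl28-3 and no sequencing batch, and they call the 3 samples of a genotype biological replicates. The comparison asks how transcript of these genes differs in the scl28-3 mutant in a tissue where cells divide before they elongate.

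Microtubules are polymers that plant cells rebuild at each stage of the cell cycle, as the cortical array of interphase, the preprophase band that marks the future division plane, the spindle and the phragmoplast that lays down the new cell wall. MAP65 proteins cross-link antiparallel microtubules, EB1 proteins track growing plus ends, MOR1 promotes microtubule growth and CLASP holds microtubules at the cell cortex and at cell edges. IQD proteins bind calmodulin and microtubules, and IQD6 and IQD8 belong to a small group that takes part in positioning the division plane. From this background, MAP65-4 and EB1C were set as mitotic members, since they are known for roles in spindle and phragmoplast. IQD6 and IQD8 were set as division-site members, and the other 6 as constitutive members, which act in interphase arrays as well as in dividing cells.

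The windows upstream of the mitotic members are shown because many mitotic genes of plants carry the core of the mitosis-specific activator (MSA) element, AACGG, the site of MYB3R factors. That of IQD8, a division-site member, is shown as the window with a match outside the mitotic members. The window of IQD6, the other division-site member, held none and is not shown. Each window is the 250 bases before the annotated gene start in TAIR10.1 (RefSeq), 5′ to 3′ on the strand of the gene, and capitals mark the core or its reverse complement CCGTT. The MAP65-4 window is chr3:22480981-22481230 on the minus strand, that of EB1C is chr5:26842105-26842354 on the minus strand, and that of IQD8 is chr1:27358864-27359113 on the minus strand.
MAP65-4: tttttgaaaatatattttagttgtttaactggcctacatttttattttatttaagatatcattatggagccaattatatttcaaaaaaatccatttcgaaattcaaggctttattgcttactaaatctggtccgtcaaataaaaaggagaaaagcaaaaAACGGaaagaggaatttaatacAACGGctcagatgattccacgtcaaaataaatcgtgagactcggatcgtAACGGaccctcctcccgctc
EB1C: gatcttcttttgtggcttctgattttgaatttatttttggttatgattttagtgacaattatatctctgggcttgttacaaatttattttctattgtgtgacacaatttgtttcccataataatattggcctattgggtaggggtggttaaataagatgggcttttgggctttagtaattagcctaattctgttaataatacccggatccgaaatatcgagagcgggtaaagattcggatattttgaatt
IQD8: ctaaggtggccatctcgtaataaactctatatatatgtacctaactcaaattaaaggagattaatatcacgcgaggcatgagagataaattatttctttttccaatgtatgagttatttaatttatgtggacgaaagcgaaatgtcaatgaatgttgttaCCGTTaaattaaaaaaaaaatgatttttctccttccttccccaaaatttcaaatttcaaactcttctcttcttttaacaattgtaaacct
MAP65-4 held 3 copies of the core on its own strand, with first bases 91, 69 and 20 bases before the gene start. IQD8 held 1 copy on the opposite strand, which begins 90 bases before the start, and EB1C held none. The windows of the other 7 genes held none either, so 2 of 10 windows had a match. The letters AACGG or CCGTT were found in 22.2% of the same windows of 17439 tested protein-coding genes, in 20.6% of those of 27443 protein-coding genes of the 5 chromosomes, and in 10 of 15 windows of a list of mitotic cyclins, kinases and cytokinesis genes. No other motif was searched, and a match is a description of these letters and not a binding site.

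SCL28 itself was measured first, as a check of the labels. Its transcript was at 17.7, 14.9 and 13.7 CPM in scl28-3 libraries 1 to 3, against 44.5, 42.6 and 42.4 CPM in wild-type libraries 1 to 3, where CPM are read counts scaled to a common library total. The genotypes did not overlap, and the limma log2 fold change of SCL28 was -1.48 ± 0.12 (SE), with an adjusted p = 0.0022. In the same fit 13 of 17879 tested genes were called at an adjusted p under 0.05, a background of 0.0727%, and each of the 13 was lower in scl28-3. No gene was called higher by limma, by edgeR's quasi-likelihood test or by DESeq2. At an unadjusted limma p under 0.05, 394 genes were higher and 387 lower, together 4.37% of tested genes. Recovered depth ran from 13996534 to 16780424 reads in scl28-3 libraries and from 10399899 to 11572901 reads in wild-type libraries, so depth and genotype cannot be told apart. Wild-type library 1 stood apart on the first principal component, at -35.6, with the other 5 libraries between -9.4 and 19.5.

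None of the 10 genes differed between scl28-3 and wild type beyond the spread between libraries. By limma, by edgeR's quasi-likelihood test and by DESeq2, 0 of 10 were called, and 0 of 10 had an unadjusted p under 0.05, against 4.37% of all tested genes by limma. The genotypes overlapped for each of the 10 genes, where 10.4% of tested genes had no overlap. Of the 10 log2 fold changes 6 were above 0 and 4 below, beside 52.1% of all tested genes above 0, and their median was 0.03, beside 0.01 over all tested genes. Each of the 10 was measured on between 78 and 2942 reads in a library, and all 10 passed the filter on low counts. The 95% intervals of the 10 fold changes lay between 0.723-fold (IQD6, lower bound) and 1.42-fold (MAP65-4, upper bound), so a change of 1.5-fold in either direction was outside each interval, as it was for 77.5% of all tested genes.

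**Figure D1:**
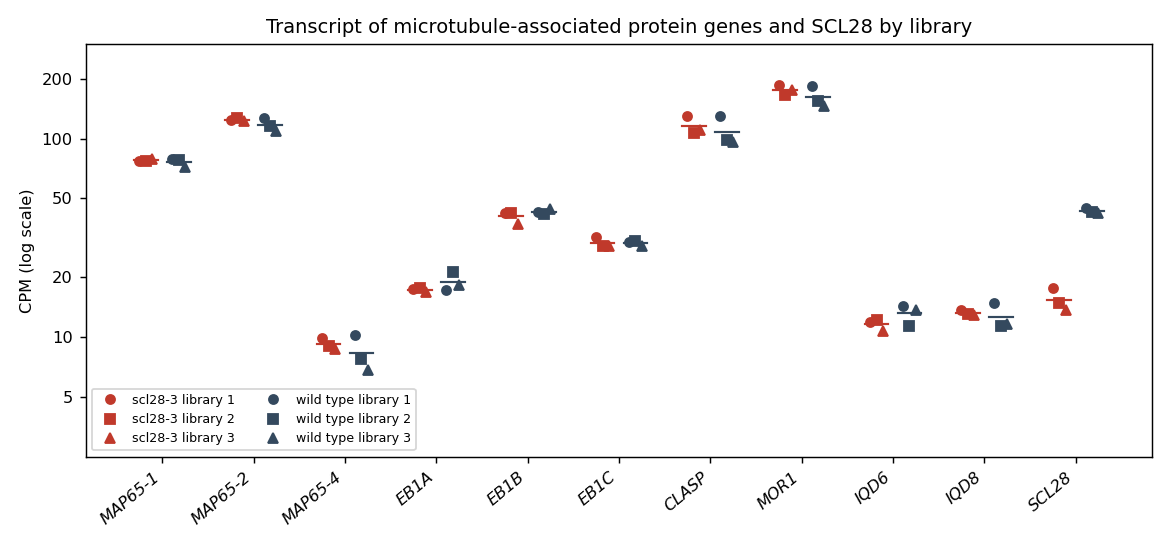
Transcript level in CPM (log scale) of the 10 genes and of SCL28 in each library, scl28-3 left of wild type; symbols give the library number and bars the mean of 3 libraries. The genotypes overlap for each gene except SCL28, which was at 15.4 CPM in scl28-3 and 43.2 CPM in wild type on average.

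**Figure D2:**
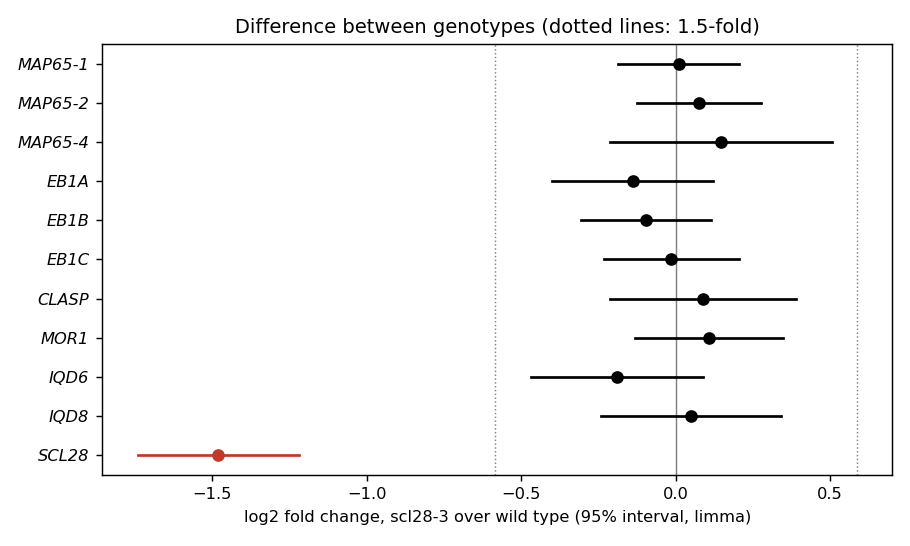
Log2 fold change of scl28-3 over wild type from the limma fit (points) with its 95% interval (lines), red where the adjusted p was under 0.05; dotted lines mark 1.5-fold. SCL28 lies at -1.48, and the intervals of the other 10 genes include 0.

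The MAP65 genes encode the cross-linkers. MAP65-1 (AT5G55230, chromosome 5, 22401927 to 22405568, plus strand, 10 exons), which bundles cortical and phragmoplast microtubules, was at 77.1, 77.0 and 79.1 CPM in scl28-3 libraries and at 79.4, 77.9 and 71.7 CPM in wild-type libraries. The values were nearly level, with wild-type library 3 lowest and wild-type library 1 highest, and the log2 fold change of MAP65-1 was 0.01 ± 0.09 (SE, 95% interval -0.19 to 0.20). MAP65-2 (AT4G26760, chromosome 4, 13478592 to 13481870, minus strand, 10 exons), its close relative, was at 125, 127 and 123 CPM in scl28-3 libraries and at 126, 116 and 109 CPM in wild-type libraries. Wild-type library 1 lay within the range of the scl28-3 libraries for MAP65-2, and the other wild-type libraries lay below it. Its means were 125 ± 1.58 CPM in scl28-3 and 117 ± 8.67 CPM in wild type (SD, n = 3 each), with a log2 fold change of 0.08 ± 0.09 (95% interval -0.13 to 0.28).

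MAP65-4 (AT3G60840, chromosome 3, 22477573 to 22480980, minus strand, 13 exons), the mitotic member of the family, was at 9.86, 9.08 and 8.70 CPM in scl28-3 libraries and at 10.2, 7.79 and 6.84 CPM in wild-type libraries. It had the widest relative spread of the 10 genes among wild-type libraries, with a coefficient of variation of 6.42% in scl28-3 and 20.9% in wild type, beside medians of 7.53% and 11.1% over 14036 tested genes with a mean of at least 5 CPM. MAP65-4 was also the gene of the 10 with the fewest reads, 78 to 146 in a library, and the part of counting noise in its spread was not tested. Its log2 fold change of 0.14 ± 0.16 was the largest above 0 among the 10, and its 95% interval ran from -0.21 to 0.50. Without wild-type library 1 the log2 fold change of MAP65-4 was 0.29 and still not called (limma adjusted p = 0.538).

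The EB1 genes encode the plus-end trackers. EB1A (AT3G47690, chromosome 3, 17581096 to 17583586, plus strand, 8 exons) was at 17.4, 17.7 and 16.8 CPM in scl28-3 libraries and at 17.2, 21.25 and 18.3 CPM in wild-type libraries, with wild-type library 2 above the rest. EB1B (AT5G62500, chromosome 5, 25092641 to 25095310, plus strand, 8 exons) was at 42.2, 42.4 and 37.3 CPM in scl28-3 libraries and at 42.8, 41.6 and 44.3 CPM in wild-type libraries, with scl28-3 library 3 below the rest. Both act on cortical microtubules, and their log2 fold changes were -0.14 ± 0.12 for EB1A and -0.10 ± 0.09 for EB1B. EB1C (AT5G67270, chromosome 5, 26840011 to 26842104, minus strand, 6 exons), the nuclear and spindle member, was at 32.1, 28.85 and 28.9 CPM in scl28-3 libraries and at 30.2, 30.6 and 28.7 CPM in wild-type libraries. Means of EB1C were 29.9 ± 1.85 CPM in scl28-3 and 29.8 ± 1.01 CPM in wild type (SD, n = 3 each), with a log2 fold change of -0.01 ± 0.10 (95% interval -0.23 to 0.20).

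MOR1 and CLASP are large proteins with TOG domains, which bind tubulin. MOR1 (AT2G35630, chromosome 2, 14966574 to 14980761, plus strand, 53 exons) was at 186, 166 and 175 CPM in scl28-3 libraries and at 184, 154 and 147 CPM in wild-type libraries. CLASP (AT2G20190, chromosome 2, 8711579 to 8719115, minus strand, 21 exons) was at 131, 106 and 111 CPM in scl28-3 libraries and at 130.1, 98.2 and 96.3 CPM in wild-type libraries. For both genes library 1 of each genotype was the highest of its genotype, at nearly the same level in both, and wild-type library 3 was the lowest of the 6. Log2 fold changes were 0.11 ± 0.11 for MOR1 (95% interval -0.13 to 0.35) and 0.09 ± 0.13 for CLASP (95% interval -0.21 to 0.39). When wild-type library 1 was left out, MOR1 and CLASP were the 2 genes of the 10 that reached an unadjusted p under 0.05, with log2 fold changes of 0.20 for MOR1 and 0.22 for CLASP and limma adjusted p of 0.484 and 0.501. The share of all tested genes at such a p in this fit is not given here, so the count of 2 is not a result about these genes. Leaving out any other library gave 0 of the 10.

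IQD6 and IQD8 belong to the division-site group. IQD6 (AT2G26180, chromosome 2, 11143290 to 11145103, minus strand, 5 exons) was at 11.9, 12.25 and 10.7 CPM in scl28-3 libraries and at 14.4, 11.4 and 13.8 CPM in wild-type libraries. Its log2 fold change of -0.19 ± 0.12 was the farthest from 0 of the 10 (95% interval -0.47 to 0.09, limma unadjusted p = 0.158), and wild-type library 2 lay among the scl28-3 libraries. IQD8 (AT1G72670, chromosome 1, 27356459 to 27358863, minus strand, 5 exons) was at 13.65, 13.2 and 12.9 CPM in scl28-3 libraries and at 14.95, 11.4 and 11.7 CPM in wild-type libraries, with a log2 fold change of 0.05 ± 0.13 (95% interval -0.24 to 0.34). The scl28-3 values of IQD8 lay between the lowest and the highest wild-type value. IQD8 overlaps AT1G72660 on the opposite strand by 394 bases in TAIR10.1, and that gene was at 0.71 to 1.31 CPM in scl28-3 and 0.48 to 0.86 CPM in wild type. IQD6 overlaps CYP711A1 on the opposite strand by 71 bases, and CYP711A1 was at 8.44 to 13.2 CPM in scl28-3 and 8.17 to 11.7 CPM in wild type. Whether counting used the strand is not given in the sources used here, so reads from these stretches cannot be assigned with certainty. The other 8 genes overlap no annotated gene and share no stretch of 50 bases with the longest transcript of any other gene.

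Levels were compared between genes per length, as CPM per kilobase of the longest annotated transcript. MAP65-2 was highest, at 56.1 ± 0.711 in scl28-3 and 52.7 ± 3.90 in wild type, and its range did not meet that of the next gene. MAP65-1, EB1B, MOR1, CLASP and EB1C followed, with means over 6 libraries between 29.1 and 22.2 CPM per kilobase, and each overlapped its neighbour in this order. EB1A came next at 13.02 ± 0.335 in scl28-3 and 14.3 ± 1.58 in wild type, apart from both neighbours. IQD6 and IQD8 overlapped each other, at 7.68 ± 0.529 and 6.998 ± 0.209 in scl28-3 and 8.72 ± 1.04 and 6.71 ± 1.04 in wild type. MAP65-4 was lowest, at 4.25 ± 0.273 in scl28-3 and 3.81 ± 0.798 in wild type, below every value of IQD8. The 2 mitotic members therefore lay far apart in level, with EB1C close to CLASP and MOR1 and MAP65-4 at the end of the order.

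**Figure D3:**
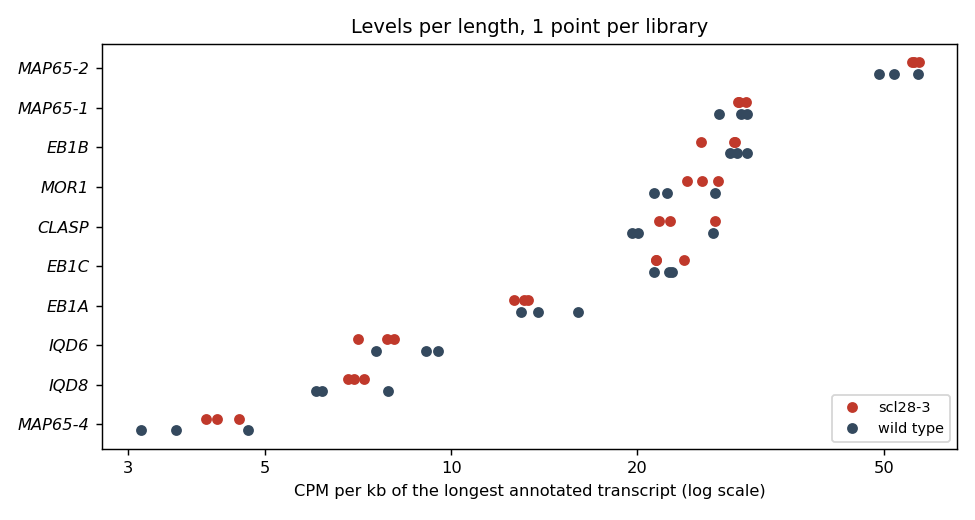
CPM per kilobase of the longest annotated transcript (log scale), 1 point per library, with scl28-3 above wild type for each gene. MAP65-2 is highest and MAP65-4 lowest in each library, and the genes from MAP65-1 to EB1C overlap their neighbours.

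Within each family, the genotypes overlapped in the share of each gene. MAP65-2 made up 62.5 ± 0.520% of the summed per-length level of the 3 MAP65 genes in scl28-3 and 61.7 ± 0.485% in wild type (SD, n = 3 each). MAP65-4 made up 4.73 ± 0.302% in scl28-3 and 4.44 ± 0.612% in wild type. Among the EB1 genes, EB1B held 43.9 ± 1.38% in scl28-3 and 44.5 ± 2.04% in wild type, EB1C 35.4 ± 1.44% in scl28-3 and 33.8 ± 1.09% in wild type, and EB1A 20.7 ± 0.661% in scl28-3 and 21.7 ± 1.96% in wild type. Of 8 ratios of per-length level between related genes, that of IQD6 to IQD8 was the one without overlap, at 1.09, 1.16 and 1.04 in scl28-3 libraries and 1.204, 1.25 and 1.47 in wild-type libraries. Its two-sided exact permutation p was 0.1, the smallest that 3 against 3 libraries can give, and 0.64 after Benjamini-Hochberg adjustment over the 8 ratios.

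The genes varied between libraries of one genotype, and members of one class did not all share a pattern. In scl28-3 libraries 1 to 3 the mean log2 level relative to the 6-library mean was 0.13, 0.01 and -0.05 for the 2 mitotic members. For the 6 constitutive members it was 0.06, -0.0007 and -0.05. In wild-type libraries 1 to 3 the means were 0.13, -0.02 and -0.21 for mitotic and 0.09, 0.02 and -0.11 for constitutive members. In library 1 of scl28-3 the log2 level relative to the 6-library mean was 0.17 for MAP65-4, 0.23 for CLASP and 0.14 for MOR1, and in wild-type library 1 it was 0.24, 0.24 and 0.14. In wild-type library 3 the same genes were at -0.34, -0.23 and -0.22. Thus the mitotic MAP65-4 moved between libraries with the constitutive CLASP and MOR1, and IQD8 was likewise high in library 1 of both genotypes (0.07 in scl28-3, 0.22 in wild type) and low in wild-type library 3 (-0.16). EB1C, the other mitotic member, ranged only from -0.08 to 0.10, EB1A was highest in wild-type library 2 (0.27), and EB1B and IQD6 were lowest in scl28-3 library 3 (-0.19 and -0.22).

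In CPM, 7 of the 10 genes were highest in library 1 of either genotype, beside 37.7% of all tested genes. In library 3 of either genotype 9 of the 10 were lowest, beside 29.5% of all tested genes. Of these, 6 were lowest in wild-type library 3, beside 16.1% of all tested genes, and 3 in scl28-3 library 3, beside 13.4%. The list of 15 mitotic genes was chosen for dividing cells with earlier results of these data known, and it followed a like course. Its mean log2 level in libraries 1 to 3 was 0.17, -0.05 and -0.09 for scl28-3 and 0.14, -0.02 and -0.15 for wild type. In this list 15 of 15 genes were highest in library 1 of either genotype, and 12 of 15 were lowest in library 3 of either genotype. The 8 endodermis markers, genes of a differentiated cell layer, were at 0.02, 0.06 and 0.59 in scl28-3 and at -0.95, -0.03 and 0.31 in wild type, and their summed level was 297 to 447 CPM in scl28-3 and 147 to 375 CPM in wild type. The 6 root hair markers summed to 296 to 370.05 CPM in scl28-3 and 249.8 to 312 CPM in wild type, and the 3 root cap markers to 33.8 to 51.9 CPM in scl28-3 and 34.5 to 50.9 CPM in wild type. No marker of these lists was at 0 in any library. The part of tip makeup in the levels of the 10 genes was not tested, and in bulk tips fewer cells of a type and less RNA per cell cannot be told apart.

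**Figure D4:**
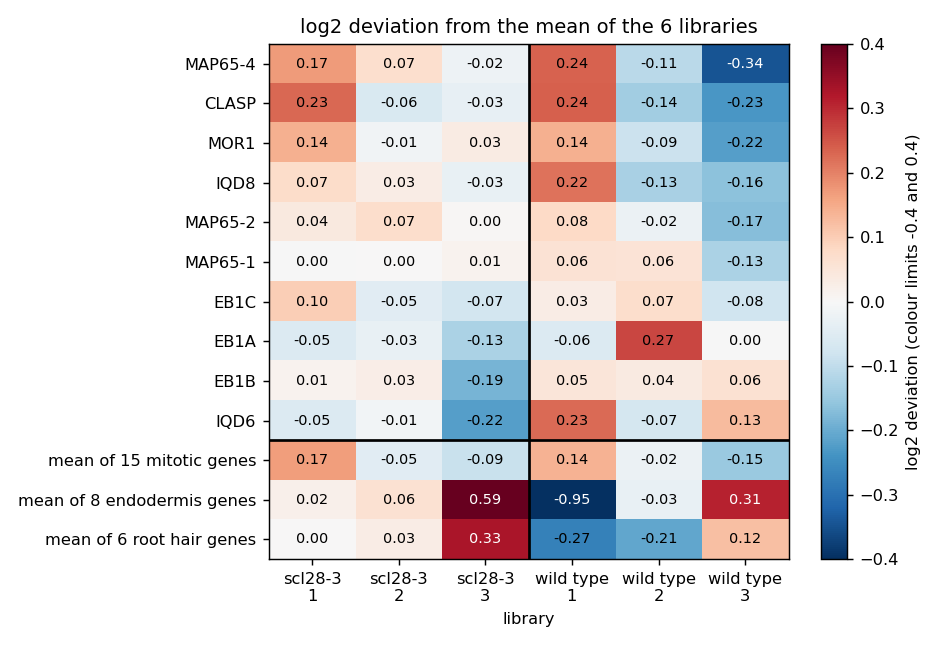
Log2 deviation of each gene, or of the mean of each marker list, from its mean over the 6 libraries (TMM-scaled log2(CPM + 0.5)), scl28-3 libraries left of wild-type libraries. MAP65-4, CLASP, MOR1 and the mitotic genes are high in library 1 of both genotypes and low in wild-type library 3, and the endodermis genes are lowest in wild-type library 1.

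The genes most like 4 of the members over the 6 libraries were taken by Pearson's r of log2 levels among tested genes with a mean of at least 10 CPM, as a description. For MAP65-4 these were WSIP2, AT5G12350 and FTSH11 (r between 0.996 and 0.998), and 185 of 11691 genes had an r over 0.95 with it. For MAP65-1 they were ACBP4, ATHB-15 and A/N-InvB (0.990 to 0.995), with 33 genes over 0.95. EB1C was nearest to ERD5, AT3G19390 and AT2G43770 (0.983 to 0.986), and IQD6 to AT1G29418, AT1G04910 and AT3G60440 (0.973 to 0.976), with 21 and 14 genes over 0.95. With 6 points shared by all genes, high values arise among many genes.

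The wider microtubule machinery gave no called gene either, by limma, edgeR or DESeq2. Of the other MAP65 genes and IQD7, 6 of 7 were listed and tested, 3 had a log2 fold change above 0 and 3 below, and 0 had an unadjusted p under 0.05. MAP65-3, which acts at the phragmoplast midzone, was at 29.8, 25.2 and 23.1 CPM in scl28-3 libraries and at 32.6, 22.2 and 20.5 CPM in wild-type libraries, again highest in library 1 of each genotype. MAP65-6, the most abundant in CPM of this list, was at 45.4 ± 4.16 CPM in scl28-3 and 41.3 ± 5.12 CPM in wild type. MAP65-8 was the list's gene without overlap between genotypes, 1 of 6, where 10.4% of all tested genes had no overlap. It was at 2.86, 2.11 and 2.26 CPM in scl28-3 and at 3.02, 3.56 and 3.16 CPM in wild type, with a limma adjusted p of 0.994.

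Of 18 genes for microtubule nucleation (gamma-tubulin complex, augmin and TPX2), 14 had a log2 fold change above 0 and 4 below. The median was 0.03, and 52.1% of all tested genes were above 0. Without wild-type library 3, 8 of the 18 were above 0 and the median was -0.003. Without wild-type library 1, 15 were above 0 and the median was 0.093. With all 6 libraries, 4 of the 18 had no overlap between genotypes, beside 10.4% of all tested genes. At an unadjusted p under 0.05 by limma was 1 gene of the 18, beside 4.37% of all tested genes. That gene was GIP2, a small partner of the gamma-tubulin complex, at 8.47 ± 1.58 CPM in scl28-3 and 10.7 ± 0.973 CPM in wild type (SD, n = 3 each, limma adjusted p = 0.994). The most abundant in CPM, the augmin subunits AUG5 and AUG2, were at 62.2 ± 6.27 and 38.9 ± 1.55 CPM in scl28-3 and at 58.1 ± 9.08 and 38.7 ± 5.31 CPM in wild type. Of 14 genes for severing and the cortical array, 12 had a log2 fold change above 0 and 2 below, and the median was 0.04. Without wild-type library 3, 6 of the 14 were above 0 and the median was -0.027. Without scl28-3 library 1, 8 were above 0, and without wild-type library 1, 12 were, with a median of 0.13. With all 6 libraries, 3 of the 14 had no overlap between genotypes and 2 were at an unadjusted p under 0.05. The shares over all tested genes are the same 10.4% and 4.37%. WDL1, of the WVD2 family that affects cortical microtubules, was at 8.36, 8.73 and 9.59 CPM in scl28-3 and at 5.10, 7.02 and 5.44 CPM in wild type. The genotypes did not overlap for WDL1, and its log2 fold change of 0.56 ± 0.15 gave a limma adjusted p of 0.952. AT1G11160, a WD40-repeat protein by its annotation, was at 15.8 ± 1.33 CPM in scl28-3 and 12.8 ± 1.21 CPM in wild type (limma adjusted p = 0.994). SPR1 and MAP70-1, the most abundant of that list in CPM, were at 169 ± 21.1 and 131 ± 4.83 CPM in scl28-3 and at 185 ± 36.5 and 126 ± 12.6 CPM in wild type.

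Of the 15 mitotic genes 9 had a log2 fold change above 0 and 6 below, and the median was 0.05. Without scl28-3 library 1, 5 of the 15 were above 0 and the median was -0.066. Without wild-type library 3, 5 were above 0 and the median was -0.040, and without wild-type library 1, 12 were, with a median of 0.088. By the same tools 0 of the 15 were called, and 0 had an unadjusted p under 0.05. The log2 fold changes of the 8 endodermis markers were all above 0, beside 52.1% of all tested genes, with a median of 0.45, and 0 of the 8 were called by the same tools. Without wild-type library 1, which had the lowest level of this list, 6 of 8 were above 0 and the median was 0.06. Dropping scl28-3 library 3 gave a median of 0.25, and dropping wild-type library 3 gave 0.72. The 6 root hair markers were all above 0, with a median of 0.24 and 0 called, and their median was 0.13 when scl28-3 library 3 was dropped, 0.16 when wild-type library 1 was dropped and 0.40 when wild-type library 3 was dropped. Of the 3 root cap markers 2 were above 0, with a median of 0.06 and 0 called, and the median ran from -0.20 to 0.31 when a scl28-3 library was left out (library 2 and library 1) and was -0.14 without wild-type library 2. MYB36, an endodermis regulator, and PRP3, a root hair wall protein, had unadjusted p under 0.05, with limma adjusted p of 0.994 for both. They were 1 of 8 endodermis markers and 1 of 6 root hair markers, beside 4.37% of all tested genes.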

How the data were processed

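RNA-seq values of 6 root tip libraries, 3 of scl28-3 and 3 of wild type, were used. Per the file headers the deposited values are CPM, and they carry 2 decimals. HISAT2 2.0.0, HTSeq 0.6.1p1, edgeR and TAIR10 are named in the submitters' processing notes, and the annotation release and strand setting are not given in the sources used here. Low CPM values stepped by the value of 1 read, and 100% of values came out whole within 0.1 read, and 3 reads equal 0.179 to 0.288 CPM. CPM were divided by TMM factors (edgeR 4.0.16) and fitted with limma 3.58.1 (trend, R 4.3.3) on log2(CPM + 0.5), a scale that understates changes of low genes. Genes passed filterByExpr with a minimum count of 10, which left 17879. P-values are two-sided and Benjamini-Hochberg adjusted over all tested genes at 0.05. The quasi-likelihood test on recovered reads called 14 genes and DESeq2 1.42.0 called 18. CPM in the text are as deposited, without TMM factors. The steps were tested on simulated data.

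Members, classes and lists were chosen with earlier results of these data known. Named genes are the 10 members and SCL28, called list members, those at an unadjusted p under 0.05, the 2 most abundant of a list in CPM, and the 3 genes most like 4 members; MAP65-8 was named after its values were seen. Symbols, positions and lengths come from RefSeq TAIR10.1, matched by locus. Reads differed between any 2 libraries by more than sampling noise (chi-square over genes). Limma p-values set the difference between genotypes against the spread between these samples, with a variance that limma moderates across genes.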

Additional observations from a re-analysis of the deposited data

How the results depend on the processing

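SCL28 stayed called under the 16 alternatives, from -1.59 to -1.40 (log2), and 0 of the 10 members were called under each of them. The 16 alternatives are edgeR's quasi-likelihood test, DESeq2, 2 scalings, 2 filters, 3 pseudocounts, a replicate block and 6 fits without 1 library. The median log2 fold change of the members lay between -0.04 and 0.08 when a library was left out. The 13 genes called lower were 5 to 18 when a library was left out, and 18 without wild-type library 1. Sign changes of members near 0 came with EB1C at 0.0039 without TMM factors, and with fits that left out a library, where MAP65-1 ran from -0.052 to 0.039, EB1C from -0.070 to 0.018, CLASP from -0.0070 to 0.22 and IQD8 from -0.020 to 0.16. The cause was not tested. A fit with the replicate block called 0 members, and over all genes 40 lower and 24 higher. The numbers share no stated source. After each gene's mean within its genotype was subtracted, log2 levels of same-numbered libraries correlated at 0.44, 0.04 and 0.50. Across genotypes, libraries 1 and 3 each had their highest correlation with their own number, in both directions. In contrast, wild-type library 2 had a higher correlation with scl28-3 library 3 (0.064) than with its own number (0.044). The members had 78 to 2942 reads in a library, and the part of read number in their intervals was not tested.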
